A study of Drosophila melanogaster with 2 samples.

Results

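The 10 genes described here, nos, pgc, gcl, osk, bam, bgcn, ovo, otu, Sxl and orb, are regulators of germ cells and oogenesis in Drosophila melanogaster, taken by name from the 13968 protein-coding genes of the annotation. Each was searched for sites of the CG10462 protein, from 2 kb upstream of the gene to its end. An entry of a peak list was counted where its summit, the position of highest signal, lay in that window. The windows held 7 of the 2993 entries of the optimal list, 37 of 30000 in the pooled relaxed list, 36 of 30000 in the list of replicate 2 and 42 of 30000 in that of replicate 3. The optimal entries lay at 6 of the 10 genes, which were nos, gcl, bgcn, ovo, Sxl and orb.

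The data came from chromatin immunoprecipitation and sequencing (ChIP-seq) of 1 transgenic fly line that stably makes CG10462 with green fluorescent protein fused to its C-terminal end, precipitated through the tag. Chromatin was that of intact embryos aged 0 to 24 h, males and females together, sonicated to 200 to 800 bp. The 2 samples, biological replicates 2 and 3 of 1 group, cite separate protocol documents. The relaxed lists hold peaks and background. The optimal list was derived by the authors with the irreproducible discovery rate (IDR), which compares ranks between replicates. Its entries are the 2993 strongest of the pooled list, and 43 of them have no entry in replicate 3. An optimal entry thus need not be alike in both replicates. Entries were ranked by the signal value in each list, 1 being the strongest. The design has no contrast between conditions, so what follows is a description with no test, set beside the same counts over all protein-coding genes. Whole embryos hold few germ cells among many somatic cells, and an entry cannot be assigned to either.

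Germ cells of the fly form at the posterior pole of the embryo from cytoplasm that the mother loads with RNAs and proteins, the germ plasm. There osk organises the germ plasm, nos represses translation, gcl is needed to form the pole cells and pgc holds their transcription down. In the adult ovary bam and bgcn drive stem cell daughters to differentiate, and ovo, otu, Sxl and orb act in germline sex, oocyte fate and control of maternal RNA.

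The sequence at the summit differed in kind between these genes. The 101 bases centred on the summit are shown for nos, ovo, Sxl and orb, since these hold the entry richest in A and T runs, the strongest entry and the intron sites. Each is read 5′ to 3′ on the strand of its gene, from the Release 6 assembly (dm6). Capitals mark runs of at least 8 bases made only of A and T and, in ovo, the overlapping GAGAG matches, which lie on the opposite strand.
nos, chr3R:19157052-19157152, plus strand: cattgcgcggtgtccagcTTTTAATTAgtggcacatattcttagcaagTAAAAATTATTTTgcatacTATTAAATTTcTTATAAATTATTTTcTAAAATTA
ovo, chrX:5048088-5048188, plus strand: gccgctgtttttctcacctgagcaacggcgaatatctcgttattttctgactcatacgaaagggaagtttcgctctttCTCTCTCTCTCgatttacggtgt
Sxl, chrX:7095609-7095709, minus strand: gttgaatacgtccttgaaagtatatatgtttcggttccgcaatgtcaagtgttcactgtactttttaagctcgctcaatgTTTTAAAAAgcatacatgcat
Sxl, chrX:7096607-7096707, minus strand: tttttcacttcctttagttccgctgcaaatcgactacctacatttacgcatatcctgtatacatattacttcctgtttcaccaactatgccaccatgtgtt
orb, chr3R:23281066-23281166, minus strand: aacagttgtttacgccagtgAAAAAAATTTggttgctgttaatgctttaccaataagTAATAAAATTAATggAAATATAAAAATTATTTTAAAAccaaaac
The nos and orb sequences are dominated by A and T runs, with 54 and 45 of the 101 bases in such runs. The longest run was 22 bases at orb, a length that 3.27% of all optimal summits reached or passed, and 14 bases at nos, reached by 23.4%. At ovo the longest run was 7 bases, which 88.1% reached, and the summit lies beside a stretch of C and T. The downstream Sxl site, the first of the Sxl pair above, had a longest run of 9 bases (67.9%), and the upstream Sxl site one of 6 (94.3%). At gcl and bgcn, whose sequences are not shown, the longest runs were 11 (47.1%) and 6 bases (94.3%). The gcl summit had 37 bases in runs and that of bgcn had 0. Over all optimal summits the median was 10 bases for the longest run and 17 bases in runs. The run length of 8 was chosen after the sequences were seen.

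Across the 10 genes, 6 had an optimal summit in the window, against 21.4% of all protein-coding genes (2985 of 13968). A long gene gives a long window, and the share of genes with an optimal summit rose with span from 8.41% of genes under 1 kb to 45.7% of those over 32 kb. The members fall into a short and a long class, and the background was taken for each. Of the 7 short members, which span 2071 to 5652 bp, 3 had an optimal summit, which were nos, gcl and bgcn; the share among the 4469 genes of 2 to 6 kb was 22.5%. All 3 long members, ovo, Sxl and orb, which span 20247 to 23504 bp, had at least 1, and the share among the 171 genes of 20 to 24 kb was 38.6%. Counts this small do not place the list above or below these backgrounds.

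**Figure D1:**
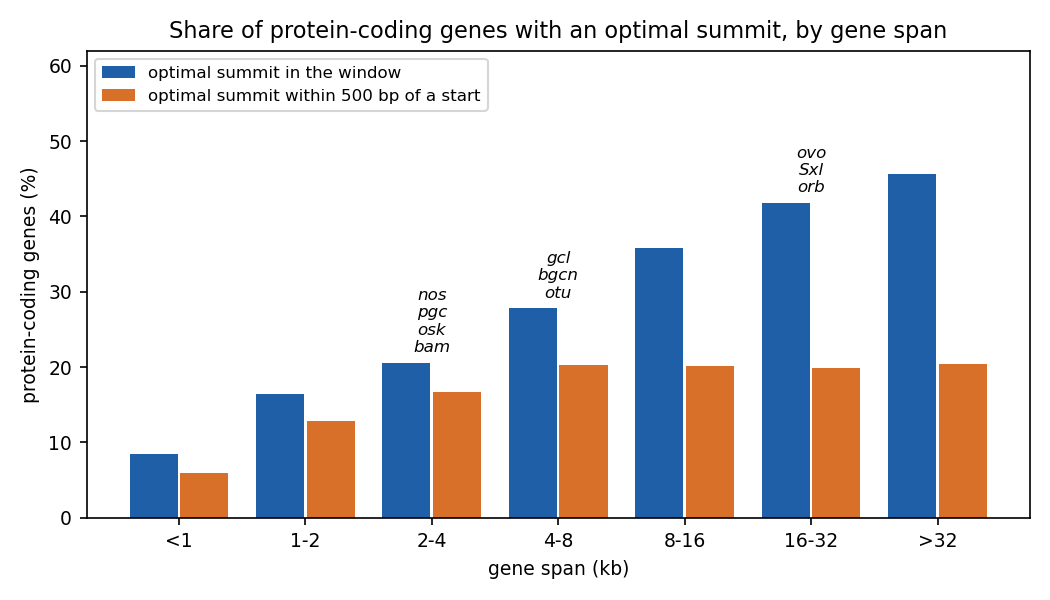
Percent of protein-coding genes with an optimal summit in the window (blue) or within 500 bp of an annotated start (orange), by gene span in kb, with the 10 genes written above their span class. The window share rises from 8.41% to 45.7% with span, while the start share lies between 19.9% and 20.4% in every class from 4 kb upwards.

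The same 6 genes had an optimal summit within 500 bp of an annotated transcript start, against 14.7% of all protein-coding genes (2047 of 13968). This count depends little on span above 4 kb, where each class stood at 19.9% to 20.4%. At nos, gcl and orb, however, the summit lay between the start of the gene and that of a neighbour read in the opposite direction, and was closer to the neighbour. Counting each summit only for the gene whose start is nearest left bgcn, ovo and Sxl, 3 of 10, against 10.3% of all genes (1445 of 13968).

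**Figure D2:**
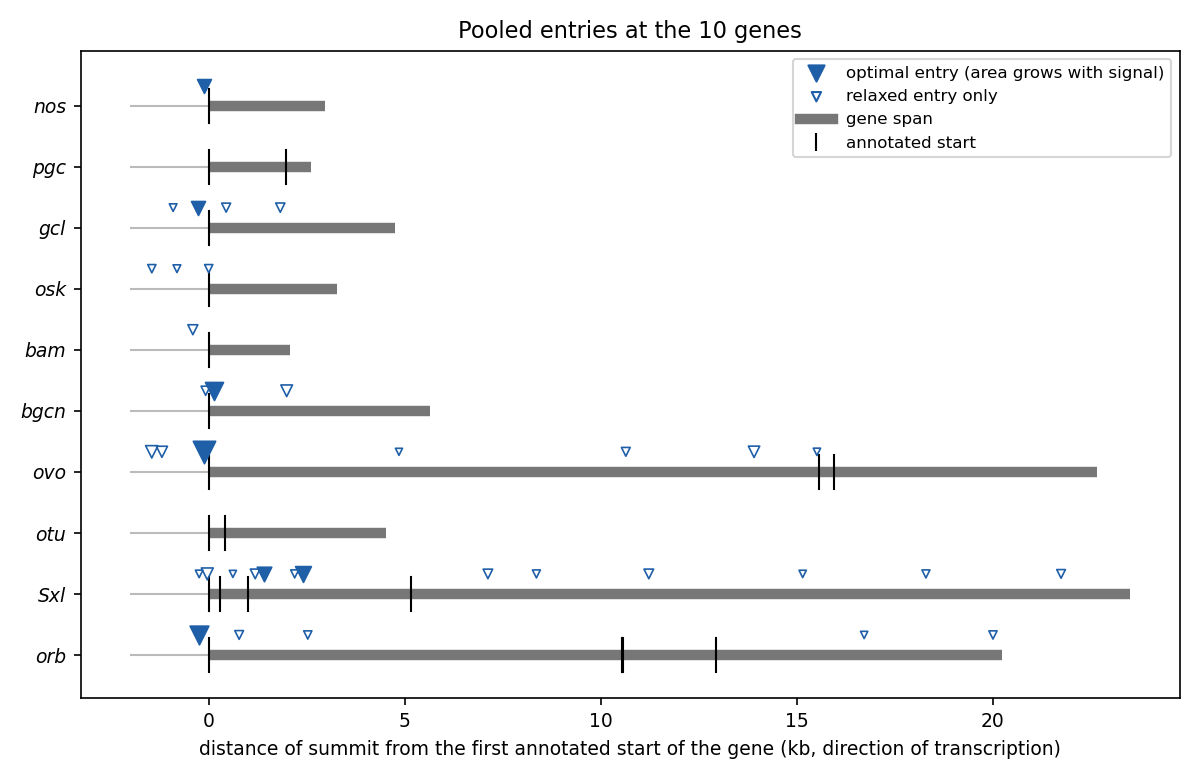
Summits of pooled entries along each gene, as the distance in kb from the first annotated start in the direction of transcription; grey bars are gene spans, thin lines the 2 kb upstream and ticks the annotated starts. Filled triangles, with area growing with the signal, are the 7 optimal entries, and open ones are the 30 entries found only in the relaxed list; pgc and otu have no pooled entry.

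Among the genes of the germ plasm and the pole cells, nos and gcl had optimal entries, both near the weak end of the list, and osk and pgc had none. The gene nos (FBgn0002962, named nanos in the annotation; 3R 19157238 to 19160202, plus strand) codes for a translational repressor that sets posterior identity and preserves the primordial germ cells. Its optimal entry had its summit at 3R 19157102, 136 bp upstream of the only annotated start. The signal was 70.5 in the pooled list (rank 2432), 51.7 in replicate 2 (rank 1940) and 18.1 in replicate 3 (rank 5173). The entry was thus weaker by rank in replicate 3, where its −log10 q-value was 0.901 against 3.95 in replicate 2. The much stronger ovo entry had the same 3.95 in replicate 2 and 3.60 in replicate 3, so the q-values of the 2 lists are not directly comparable. The ratio of the 2 ranks, 2.67, was reached or passed by 18.1% of the 2948 optimal entries found in both replicates, whose median ratio was 1.56. The summits of the replicates lay 3 bp apart. These values take, of the overlapping entries of a replicate, the one with the nearest summit. With the strongest overlapping entry instead, a choice made after seeing the data, the ratio at nos was 4.65, which 6.28% of optimal entries reached.

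The start of nos is shared with CG11779, which is read in the opposite direction from a start 221 bp away and which has an annotated transcript with an intron across the nos summit. The summit lay 85 bp upstream of the nearest CG11779 start. Replicate 2 alone listed a further, stronger entry that also overlapped the optimal entry of nos, with its summit at 3R 19156904, signal 70.2 and rank 1112. That summit was 334 bp upstream of nos and 92 bp upstream of another CG11779 start. In replicate 3 the nos window held a single entry.

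The gene gcl (FBgn0005695; 2R 8724258 to 8728999, plus strand) codes for germ cell-less, a substrate adaptor of a ubiquitin ligase that is needed for pole cell formation. Its optimal summit at 2R 8723975 was 283 bp upstream of the start. The signal was 71.9 in the pooled list (rank 2353), 40.7 in replicate 2 (rank 2878) and 23.6 in replicate 3 (rank 3164). The replicates placed it alike, with a rank ratio of 1.10 that 87.8% of optimal entries reached, and their summits were 8 bp apart. CG14767 starts 419 bp from gcl on the opposite strand, and the summit was 136 bp upstream of that start. The other 3 pooled entries of the window ranked 9446, 10515 and 21060.

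No optimal entry lay in the window of osk (FBgn0003015; 3R 8935126 to 8938395, plus strand), whose RNA and protein build the germ plasm. Its strongest pooled entry ranked 15314 with signal 22.6. That summit was 5 bp upstream of the osk start and 166 bp from a start of the antisense RNA gene asRNA:CR44020. The entry had no counterpart in replicate 2 and ranked 23505 in replicate 3. Next came a summit 1457 bp upstream, ranked 15346, with 26372 in replicate 2 and 6427 in replicate 3. These are ranks of the relaxed list far below the last optimal entry. The nearest optimal summit was 3044 bp upstream of the osk start, ranked 1429, and 186 bp from a start of pyd (polychaetoid, a junction protein gene).

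The window of pgc (FBgn0016053; 2R 22330200 to 22332813, plus strand) held no pooled entry at all. The gene codes for polar granule component, a small protein that blocks transcription elongation in pole cells. Replicate 2 listed a single summit 688 bp upstream, ranked 23213, and replicate 3 a single one 1481 bp upstream, ranked 12094. They did not coincide, and that of replicate 2 was nearer to a start of CG34207, 208 bp away. The nearest optimal summit was 50836 bp away, downstream of the pgc start, at CG13506.

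Of the pair that moves stem cell daughters into differentiation, bgcn had a strong optimal entry and bam had none. The gene bgcn (FBgn0004581; 2R 23853270 to 23858921, minus strand) codes for a helicase-like partner of Bam in translational repression. Its summit at 2R 23858796 was 125 bp downstream of the start, in the 5′ UTR, and was the only summit of the 7 to lie inside an exon of its gene. The signal was 122 in the pooled list (rank 935), 87.2 in replicate 2 (rank 727) and 35.0 in replicate 3 (rank 1684). The entry was thus within the strongest 2993 of each replicate, with a rank ratio of 2.32. A weaker pooled summit, ranked 4289 (5008 in replicate 2 and 4425 in replicate 3), lay exactly at the start of Pym, a gene for a partner of the exon junction complex that is nested in an intron of bgcn on the same strand.

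The gene bam (FBgn0000158; 3R 25243039 to 25245109, minus strand) is the differentiation switch of the germline stem cell lineage. It had 1 pooled entry, 410 bp upstream of its start, with signal 34.9 and rank 7205. In replicate 2 the signal was 34.4 (rank 3860), and replicate 3 had no entry in the whole window. The nearest optimal summit was 2411 bp upstream and ranked 226 (111 in replicate 2 and 909 in replicate 3). It lay 6 bp from the start of the ribosomal protein gene RpS27, outside the window of bam.

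Of the genes for female germline sex and identity, ovo had the strongest entry of all 10 and Sxl had an optimal pair inside the gene, while otu had no pooled entry. The gene ovo (FBgn0003028; X 5048273 to 5070929, plus strand) codes for zinc finger transcription factors of the female germline, and its locus also makes Shavenbaby, a regulator of epidermal cell shape. The optimal summit at X 5048138 was 135 bp upstream of the first of 3 annotated starts. Whether that start makes the germline factors or Shavenbaby was not examined, so the entry is not placed at a germline promoter. The signal was 189 in the pooled list (rank 370), 122 in replicate 2 (rank 319) and 68.1 in replicate 3 (rank 481). It was the highest ranked of the 7 entries in each of the 3 lists, and the replicate summits were 14 bp apart. The pooled entry was narrow, at 179 bp against the median of 416 bp. Of all optimal entries 14.6% were narrower than that median, and the share as narrow as 179 bp was not taken. In replicate 2 the ovo entry was 155 bp wide, but in replicate 3 it was 396 bp wide. The intron of the noncoding gene lncRNA:CR44833, on the opposite strand, spans the summit, but the start of that gene is 15730 bp away.

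The other starts of ovo, 15571 and 15960 bp downstream, had no optimal summit. The only pooled entry within 500 bp of them ranked 25020, 52 bp upstream of the second start. Its summit was also 76 bp from the start of lncRNA:CR44833. Replicate 3 listed this entry at rank 14227 and replicate 2 did not list it. Upstream of the first start stood an entry 1458 bp away that ranked 3543, with 3519 in replicate 2 and 4259 in replicate 3. Of all pooled entries in the 10 windows that missed the optimal list, this one ranked highest. A further pooled entry in an intron, 1657 bp upstream of the second start, ranked 4643 (4401 in replicate 2 and 7954 in replicate 3).

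The gene Sxl (FBgn0264270; X 7074550 to 7098053, minus strand) codes for the RNA-binding protein that switches female development on and keeps it on by controlling splicing, including that of its own RNA. It has 4 annotated starts, of which the first and the last lie 5170 bp apart. Both optimal summits lay in introns between them. The upstream one, at X 7096657, was 1396 bp downstream of the first start and 409 bp downstream of the third. Its signal was 77.6 in the pooled list (rank 2083), 51.7 in replicate 2 (rank 1944) and 39.0 in replicate 3 (rank 1388). The downstream one, at X 7095659, was 2394 bp downstream of the first start and 2776 bp upstream of the last. Its signal was 92.5 in the pooled list (rank 1578), 48.9 in replicate 2 (rank 2134) and 50 in replicate 3 (rank 888). Both Sxl entries ranked higher in replicate 3 than in replicate 2, as did that of orb, while those of nos, gcl, bgcn and ovo ranked lower there.

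The position of the Sxl summits was less sharply shared than at the other genes. At the upstream site the summit lay at 7096767 in replicate 2 and at 7096623 in replicate 3, and at the downstream site at 7095780 and 7095700. These gaps of 144 and 80 bp were ones that 3.63% and 15.8% of optimal entries reached or passed. The other 5 entries had gaps of 3 to 17 bp, and the median over all optimal entries was 31.0 bp. A weaker pooled entry overlapped each of the pair, at ranks 8099 and 17094. At the first start of Sxl a pooled summit 41 bp upstream ranked 4015 (5270 in replicate 2 and 4096 in replicate 3), below the optimal threshold. Within 500 bp of the last start there was no pooled entry, the nearest being 1951 bp downstream at rank 8496. The Sxl window held 13 pooled entries in all.

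The window of otu (FBgn0003023; X 8485008 to 8489535, minus strand) held no pooled entry. The gene codes for ovarian tumour, a deubiquitinase needed in the female germline. Each replicate listed 1 summit upstream, 1604 bp from the start at rank 11570 in replicate 2 and 684 bp at rank 19666 in replicate 3. These lay 206 and 404 bp from starts of CG33181. The nearest optimal summit, ranked 2508, was 2424 bp upstream of otu and also had CG33181 as its nearest gene, 614 bp from a start.

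The gene orb (FBgn0004882; 3R 23260610 to 23280856, minus strand), which codes for a cytoplasmic polyadenylation element binding protein that activates localised RNAs in the oocyte, had the second strongest entry of the 10 genes. Its summit at 3R 23281116 was 260 bp upstream of the first of 4 annotated starts. The signal was 131 in the pooled list (rank 802), 76.4 in replicate 2 (rank 938) and 52.9 in replicate 3 (rank 804). The replicates gave it nearly the same rank, with a ratio of 1.17 that 80.9% of optimal entries reached, and summits 11 bp apart. Cdc16, a subunit gene of the anaphase promoting complex, starts 345 bp from orb on the opposite strand, and the summit was 85 bp upstream of it. None of the starts 10546, 10571 and 12944 bp downstream had a pooled entry within 500 bp.

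**Figure D3:**
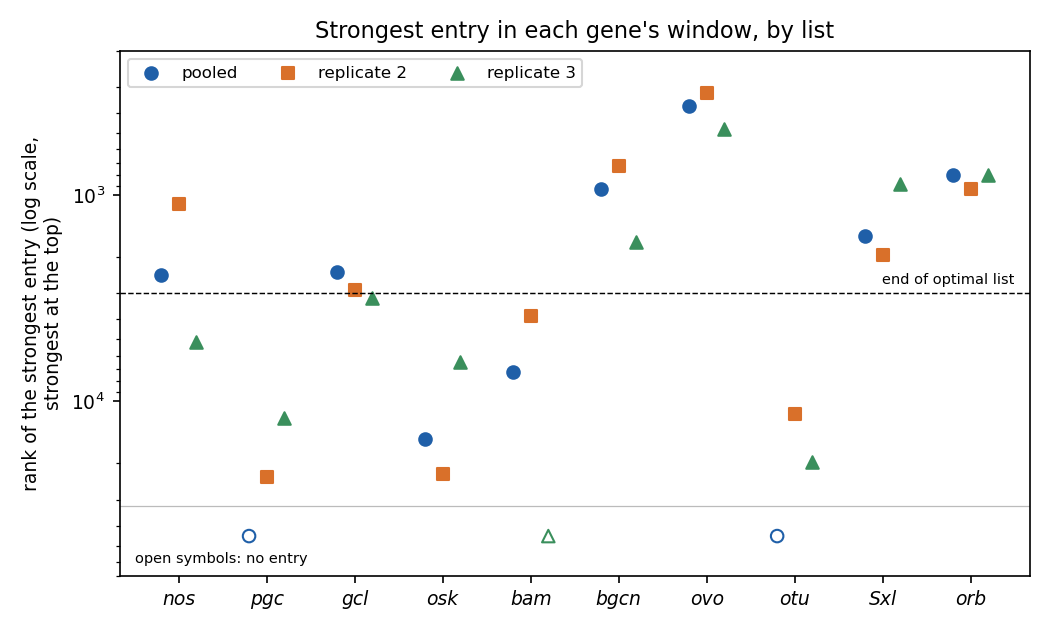
Rank of the strongest entry in each gene's window in the pooled list (circles), replicate 2 (squares) and replicate 3 (triangles), on a log scale with the strongest at the top; the dashed line is the end of the optimal list at 2993, and open symbols stand for no entry. For bgcn, ovo, Sxl and orb all 3 symbols lie above the line, for pgc, osk, bam and otu none does, and the replicate 2 square of nos, at 1112, is the entry beside CG11779.

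In order of pooled rank the 7 entries stood as ovo (370), orb (802), bgcn (935), the downstream Sxl site (1578), the upstream Sxl site (2083), gcl (2353) and nos (2432). The entries of ovo, orb and bgcn had signals above the median of the optimal list, 95.4, and those of Sxl, gcl and nos were below it; the list ended at 62.2. The order was not the same in the replicates. Replicate 2 put bgcn before orb and replicate 3 put orb and both Sxl sites before bgcn. In all 3 lists ovo was first and orb came before both Sxl sites. The gcl entry came after those of ovo, orb, bgcn and Sxl in all 3. The order of bgcn against orb and Sxl, of the Sxl sites among themselves, and of nos against gcl and Sxl changed between the replicates.

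Of the 7 entries, 5 had an overlapping entry among the strongest 2993 of both replicates, against 71.5% of all optimal entries (2139 of 2993). The exceptions were nos and gcl, which ranked 5173 and 3164 in replicate 3. All 7 were listed in both replicates, while over the whole optimal list 43 entries were missing from replicate 3 and 2 from replicate 2.

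**Figure D4:**
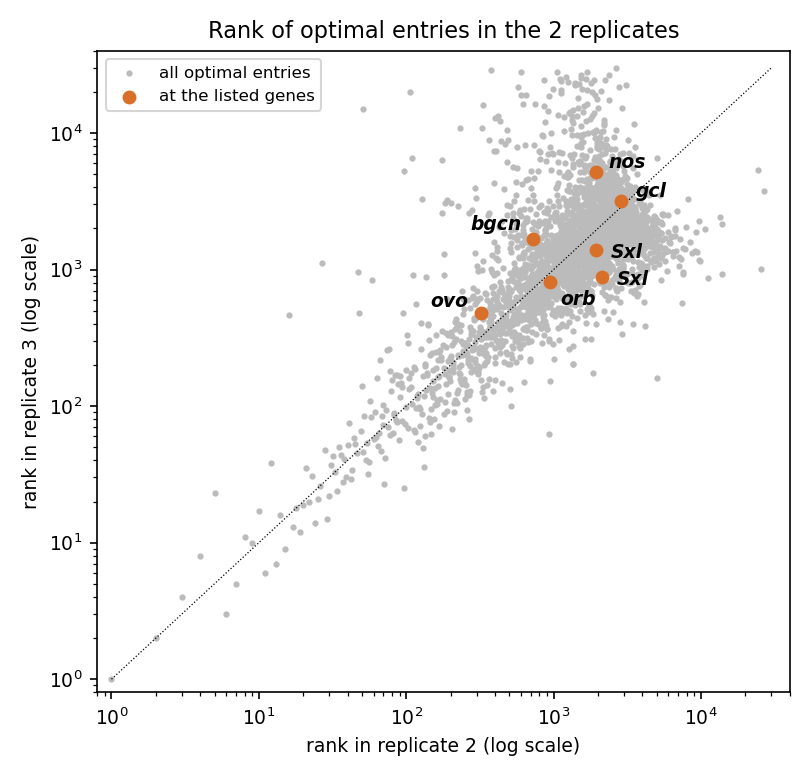
Rank in replicate 2 against rank in replicate 3, both on log scales, for the 2948 optimal entries listed in both replicates (grey) and the 7 at the listed genes (orange); the dotted line marks equal rank. The points of nos and bgcn lie above the line, weaker in replicate 3, both Sxl points lie below it, and gcl, ovo and orb lie close to it.

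In the relaxed lists most genes have an entry, so presence there says little. Of the 10 genes, 8 had a pooled relaxed summit in the window (69.6% of all protein-coding genes), all 10 had one in replicate 2 (69.2%) and 9 in replicate 3 (70.9%). Of the 30 pooled entries below the optimal threshold, 17 had an overlapping entry in both replicates and 13 in only 1 of them. Among the 30, 5 overlapped a stronger pooled entry, and such an entry can share its replicate match. The same counts over all pooled entries below the threshold were not taken, so 17 of 30 cannot be called high or low.

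Base composition around the summits did not follow a single form. In the 100 bp centred on the summit G and C made up 26% at nos, 19% at gcl, 24% at orb, 35% and 39% at the downstream and upstream Sxl sites, 46% at ovo and 51% at bgcn. Over all optimal entries the median was 32%. Only 1.94% of optimal centres were poorer in G and C than that of gcl, and 96.0% were poorer than that of bgcn. The mean over the 7 was 34.3% ± 11.9 (SD across entries), and it was 42.5% ± 8.08 in their flanks, the 100 bp centred 400 bp to each side. In 5 of 7 entries the centre was poorer than the mean of its flanks, as in 83.5% of all optimal entries. The exceptions were bgcn and ovo. At ovo the flanks held 25% and 29%, so the summit sat on a stretch richer in G and C than its surroundings.

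**Figure D5:**
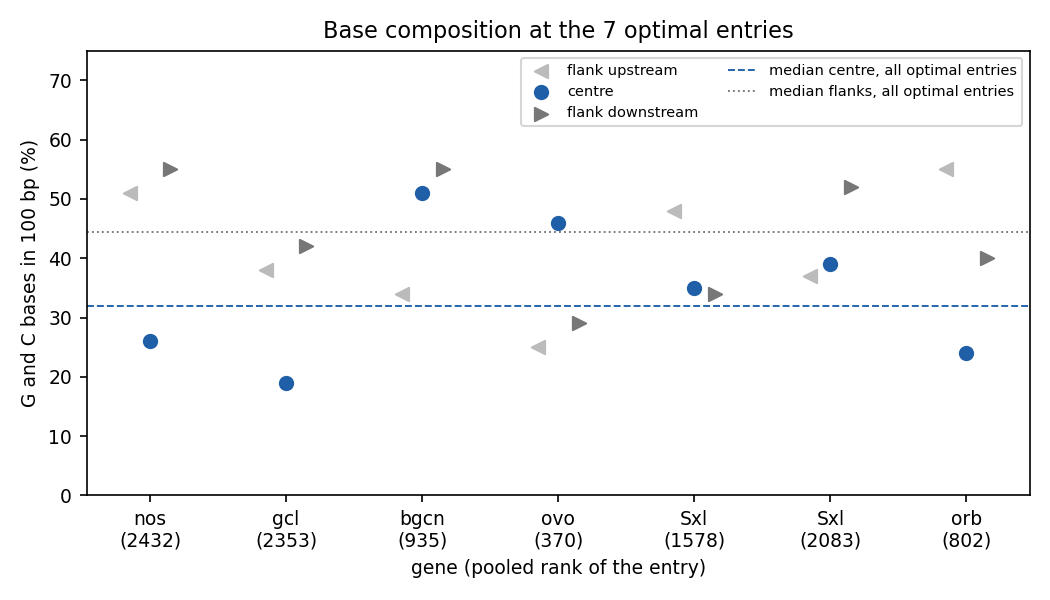
Percent of G and C bases in the 100 bp at the summit (circles) and in the 100 bp centred 400 bp upstream and downstream (triangles) at the 7 optimal entries, labelled by gene and pooled rank; lines mark the medians over all optimal entries, 32% in centres and 44.5% in flanks. The centres of nos, gcl and orb lie far below both flanks, and that of ovo lies above both.

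Short motifs had few matches at these summits. None was found at more than 10.2% of all optimal summits, so few matches in 7 entries say little about these genes. Of 8 sequences searched on both strands in the 101 bases at each summit, 6 had no match at any of the 7 entries. These were the DNA replication-related element TATCGATA (at 1.47% of optimal summits and 1.51% of promoters), the GATA core AGATAA (8.32% and 7.99%), the A and T sequence ATTTAAAA (7.05% and 6.77%), the promoter sequence GGTCACAC (0.802% and 0.974%), the E-box CACGTG (0.735% and 1.12%) and the Ovo core TAACNGT. The homeodomain core TAATTA matched at nos, where it falls inside the first A and T run above, and at 10.2% of optimal summits and 10% of promoters. GAGAG matched at ovo only, in overlapping copies, and at 9.09% of optimal summits and 13.2% of promoters. Promoters here are windows of the same length centred 120 bp upstream of the first start of each of the 13968 protein-coding genes. The Ovo core, taken from the sequence that Ovo protein itself binds, was found at 6.41% of optimal summits and 4.92% of promoters, but not at the ovo summit. TAATTA and ATTTAAAA hold only A and T, and whether their matches go with base composition was not tested.

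A wider list of 88 germline and oogenesis genes, none of them among the 10, was set beside these. Of the 88, 35 (39.8%) had an optimal summit in the window and 17 (19.3%) within 500 bp of a start, against 21.4% and 14.7% of all protein-coding genes. Their median span was 6.78 kb, and among all genes of 4 to 8 kb the shares were 27.8% and 20.3%. By role, the window count was 7 of 15 for germ plasm assembly, 9 of 15 for control of osk and nos RNA, 5 of 15 for germline stem cells and differentiation, 6 of 20 for germline sex and Sxl control, 3 of 10 for primordial germ cells and 5 of 13 for oocyte and nurse cells. The start counts were 2, 4, 2, 4, 2 and 3 in the same order. Genes for osk and nos RNA control had a median span of 11.4 kb, against 3.66 kb for germ plasm assembly.

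Of the 35 genes with an optimal summit in the window, 17 (48.6%) had one within 500 bp of a start, against 68.5% of all such protein-coding genes (2045 of 2985). Over all protein-coding genes the window and start counts drew apart with span. From 2000 to 4000 bp, 663 genes had a summit in the window and 540 at a start. From 16000 to 32000 bp the counts were 286 and 136. No share matched for span was taken here, so whether 48.6% is low for genes of such spans was not tested. Named here are the 3 highest ranked genes of each role, 18 in all, of which 5 had their strongest entry within 500 bp of a start. In germ plasm assembly the entry of vls (valois), ranked 32 (28 in replicate 2 and 48 in replicate 3), was 629 bp upstream and had bwa as its nearest start. That of shu (shutdown), ranked 1310, had Snap29 as its nearest. The entry of capu (cappuccino, an actin nucleator), ranked 1022 with 1287 and 846 in the replicates, was 421 bp upstream of a start of its own. Among regulators of osk and nos RNA, brat, which with Pumilio and Nanos represses RNAs, had an intron entry ranked 145 (152 and 185), pum one ranked 1117 (1185 and 1383), and glo one ranked 1026 (1204 and 871) that lay 77 bp upstream of its start.

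In the stem cell category, Mad, the transcription factor of the BMP signal that keeps stem cells from expressing bam, had an intron entry ranked 225 (277 and 178). The intron entries of eff, a ubiquitin conjugating enzyme gene, and stet, a rhomboid protease gene, ranked 388 (335 and 504) and 719 (767 and 885). In germline sex and Sxl control, the entry counted for the gene of heterochromatin protein HP1a (FBgn0003607) ranked 42 (46 and 45) but lay 1904 bp upstream, at CG8360. The histone methylation cofactor gene wde had an intron entry at rank 106 (122 and 99), and gro, the corepressor Groucho, had one at rank 202 (271 and 129), 158 bp upstream of an internal start.

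Among genes of the primordial germ cells, the replicates ranked the entries of Tre1 and wun far apart and that of zfh1 alike. The entry of Tre1, a receptor that guides germ cell migration, ranked 363 in the pooled list but 175 in replicate 2 and 2600 in replicate 3. That of wun, a lipid phosphatase that repels germ cells, ranked 1097 but 332 in replicate 2 and 16048 in replicate 3. The entry of zfh1, needed for the gonadal mesoderm, ranked 396 with 443 and 356. In the oocyte and nurse cell category, Src64B, hts and sn, which shape ring canals, the fusome and actin bundles, ranked 477 (486 and 564), 733 (546 and 1018) and 963 (1165 and 827). The entries of these 6 genes lay in introns. Those of wun and Src64B were also near a start of their own gene, 394 bp downstream and 152 bp upstream of it.

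The protein-coding genes whose strongest entry stood next in the pooled rank are named as those most alike by that measure, over 1 pooled list. Next to ovo stood CG1737 (369) and plh (371). Next to orb stood CG15387 and sau (801), and ATPsynCF6, RpS3 and Sec13 (804). The neighbours of bgcn were CG45064, CG45065 and Flo2 (934) and CG10731 and sotv (938). Those of Sxl were Marf and swa (1577) and CG4572 and CG4686 (1581). Next to gcl were Agpat4 (2349), CG5180 and DPCoAC (2356), and next to nos Drep4 and Uvrag (2431) and CG1523 and CG1647 (2435). Of these, swa (swallow) is in the wider list. CG10462 itself had an entry 60 bp downstream of its start that ranked 169 (167 in replicate 2 and 166 in replicate 3), stronger than any at the 10 genes.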

How the data were processed

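Peak lists of 2 ChIP-seq samples were read on build dm6. Per the sample notes deposited with the lists, relaxed lists were made per replicate and from pooled reads with 1 control, and IDR then gave the optimal list; the aligner and the caller are not named in these notes or in the labels. The deposited signal value, whose scaling is not stated, served to rank entries within a list. Every optimal entry had the same deposited −log10 q-value, 3.82, and the p-value column holds no values. The optimal entries were the 2993 strongest of the pooled list. There are no counts, so the depth of the samples is unknown, and no interval was made. No untagged or input sample was analysed here, and the dm3 lists were not used.

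Summits, counted from 1, were placed on genes of Ensembl release 115, with nos matched to nanos. Entries matched between lists where they overlapped by at least 1 bp, with the nearest summit taken among several. Named are the 10 genes, genes sharing their starts or summits, the 3 highest ranked genes of each of 6 wider categories, CG10462 and the neighbours in rank; genes at the optimal summit nearest to a member without one were named after their values were seen. The members and lists were chosen with earlier results of these data known. Alternatives changed the window, the list, the start distance, the overlap, the centre and the ranking. Counting of summits in windows was tested on a simulated list, and matching between lists was not. Python 3.11.15, numpy 2.4.6 and matplotlib 3.10.9 were used.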

Additional observations from a re-analysis of the deposited data

How the results depend on the processing

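The counts rest on where the window begins and which entries are let in. With 5 kb upstream the windows held 12 optimal entries in place of 7; bam, osk and otu, 3 of the 9 genes then counted, gained summits at RpS27, pyd and CG33181. With only the entries above the median signal of the optimal list, 3 entries, 3 genes with an entry and 3 with one at a start were left, which were ovo, orb and bgcn. At starts, a distance of 200 bp or the nearest start alone also gave 3 genes in place of 6. Where the summit in each replicate had to lie within 100 bp of the pooled one, 3 entries in place of 5 were among the strongest of both replicates, since both Sxl entries dropped out. With 1 replicate alone the windows held 5 to 8 entries and 4 to 6 genes were counted, in the window as at a start. Apart from the nearest start rule, at 10.3%, shares of all protein-coding genes under these changed settings were not taken. The counts therefore show only how the numbers of the 10 genes move, not how they stand against a background. Other windows, start sets, overlaps and centre lengths left the counts within 1.5 times, and the mean G and C share between 34.1% and 34.3%. Ordering by −log10 q-value moved only osk (15313) and bam (7211). It was chosen after seeing the data, since no p-values were listed and the planned order by p could not be run. All optimal entries share the value 3.82, so this order could not probe the ranks of nos, gcl, bgcn, ovo, Sxl and orb. Matching to the strongest overlapping replicate entry, also chosen after seeing the data, moved the rank ratio of nos from 2.67 to 4.65 and left those of the other 6 entries as they were. No paired analysis was possible because there is 1 group. Depth is unknown, so a window without an entry cannot be read as unbound.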

Other observations

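Some entries stood in the window of a gene in 1 replicate and had no counterpart in the pooled list. In replicate 2 the strongest of these was at nos, 1007 bp downstream of the start at rank 10998, and in replicate 3 the single entry of pgc at rank 12094. At osk, replicate 3 alone listed summits 2326 and 2091 bp downstream of the start, at ranks 14711 and 21223. At ovo, 3 entries of replicate 2 and 2 of replicate 3 were of this kind, the strongest at ranks 18052 and 13388. Along orb, replicate 3 listed 3, the strongest at rank 20541 in the 3′ UTR. All of these ranks are far below the optimal list.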
